A study of Mus musculus with 4 samples.

Results

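Penk, Nrgn, Igfbp7, Spp1, Ramp1 and Ramp3 are 6 of the 33696 genes counted in T cells sorted from brain and spleen, described here by the cells and T cell clones that carried their transcripts. Their identifiers are ENSMUSG00000045573 for Penk, ENSMUSG00000053310 for Nrgn, ENSMUSG00000036256 for Igfbp7, ENSMUSG00000029304 for Spp1, ENSMUSG00000034353 for Ramp1 and ENSMUSG00000041046 for Ramp3. They were chosen by values of these same data, namely how few clones held their UMIs and which helper state those cells had, so levels, clone shares, helper states and co-detection are given as descriptions with no test. Penk encodes proenkephalin, the precursor of the enkephalin opioid peptides. Nrgn encodes neurogranin, a calmodulin-binding protein best known from the postsynaptic side of neurons. Igfbp7 encodes a secreted protein that binds insulin-like growth factors and is best known from vessel walls. Spp1 encodes osteopontin, a secreted phosphoprotein that binds integrins and CD44. Ramp1 and Ramp3 encode receptor activity-modifying proteins, which pair with the receptor Calcrl to form receptors for the peptides CGRP and adrenomedullin.

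The cells came from C57BL/6 mice of WT genotype in which experimental autoimmune encephalomyelitis (EAE), a disease in which immunization sets T cells against myelin, had run to day 60. CD4+ T cells with high CD44 and no GITR (markers used to select conventional, antigen-experienced cells) were sorted from brain and from spleen. On a 5' droplet chip, 18718 brain and 38000 spleen cells were loaded. Each tissue gave 1 RNA and 1 T cell receptor (TCR) library, with no replicates and no group without EAE, and the sources used here do not give the number of mice. The design asks how these T cells and their clones differ between the chronically inflamed brain and the spleen.

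After filtering, 3927 brain cells with 40819610 unique molecular identifiers (UMIs, counts of captured RNA molecules) and 7983 spleen cells with 60323349 UMIs remained. The median cell held 9835 UMIs in brain and 7189 in spleen. By their transcripts, not all were conventional, antigen-experienced cells. Foxp3, the regulatory T cell factor, was in 6.70% of brain and 11.9% of spleen cells. Clusters named naive or central memory-like held 327 brain and 1605 spleen cells. A paired receptor was found in 3115 brain cells (79.3%) and 6728 spleen cells (84.3%), which formed 2123 brain and 6237 spleen clonotypes. A clonotype is a set of cells with the same V genes and the same CDR3 nucleotides in both chains. The libraries had 31 barcodes in common. Levels are given as CPM, the UMIs of a gene summed over cells and scaled to all UMIs of those cells, and every interval is a 95% interval that covers counting error only. No difference was tested, because cells of 1 library are not replicates.

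A T cell clone descends from a single T cell and keeps its rearranged receptor, so the receptor serves as a natural barcode of descent. Each chain joins a V and a J segment at the CDR3, which contacts the antigen, with bases trimmed and added at the joins. During EAE, Th17 cells (marked by Il17a) and Th1 cells (marked by Ifng) enter the central nervous system, and some cells make both cytokines. The CDR3 sequences of the clones that the results turn on are given here from the deposited contigs, with V and J genes named as deposited. TRAV and TRBV names of near-identical duplicated genes may be interchangeable. Capitals mark the bases between the ends that most CDR3s of the same V gene and of the same J gene share, which is where the clones differ most.

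The clone with most brain cells carrying Nrgn, Igfbp7 and Penk had 48 brain cells and used TRBV20 with TRAV7D-2.
TRBV20/TRAV7D-2 beta: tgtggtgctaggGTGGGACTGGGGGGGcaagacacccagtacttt
TRBV20/TRAV7D-2 alpha: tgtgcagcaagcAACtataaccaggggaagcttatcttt
A clone of 26 brain cells also carried Nrgn, Igfbp7 and Penk, and a clone of 14 brain cells had the highest share of cells with Nrgn among clones of that size or larger.
TRBV20/TRAV14D-3-DV8 beta: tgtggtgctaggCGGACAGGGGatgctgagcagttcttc
TRBV20/TRAV14D-3-DV8 alpha: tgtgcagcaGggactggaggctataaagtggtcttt
TRBV13-1/TRAV10 beta: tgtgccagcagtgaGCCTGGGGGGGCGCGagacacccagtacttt
TRBV13-1/TRAV10 alpha: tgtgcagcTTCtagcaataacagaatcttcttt
Most Spp1 UMIs came from a clone of 8 brain cells and one of 3 brain cells, both with TRBV31. In the 3-cell clone, 277 of the 278 Spp1 UMIs lay in 1 cell. The largest clonal share of Penk UMIs came from a clone of 6 brain cells.
TRBV31/TRAV6-3 beta: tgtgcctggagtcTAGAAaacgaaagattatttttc
TRBV31/TRAV6-3 alpha: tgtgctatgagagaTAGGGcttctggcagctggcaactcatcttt
TRBV31/TRAV6D-6 beta: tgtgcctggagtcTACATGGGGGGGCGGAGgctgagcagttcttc
TRBV13-3/TRAV12-2 beta: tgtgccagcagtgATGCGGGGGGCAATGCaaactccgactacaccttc
TRBV13-3/TRAV12-2 alpha: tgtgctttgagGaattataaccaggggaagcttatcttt
The alpha chains of the 48-cell clone and of the 6-cell clone share the J segment TRAJ23, whose end tataaccaggggaagcttatcttt is the same in both.

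All 6 genes had a higher level in brain than in spleen. Nrgn reached 77.7 CPM in the brain cells (3170 UMIs) and 4.87 CPM in the spleen cells (294 UMIs), 15.9 times as much (14.1 to 18.0). Igfbp7 reached 30.5 CPM in the brain cells (1246 UMIs) and 2.40 CPM in the spleen cells (145 UMIs), 12.7 times as much (10.7 to 15.2). Those are the highest ratios of the 6. Spp1 reached 21.9 CPM in brain and 4.84 CPM in spleen (4.53, 3.96 to 5.19). Ramp3 reached 74.5 CPM in brain and 17.0 CPM in spleen (4.38, 4.08 to 4.70). Penk reached 23.1 CPM in brain and 6.35 CPM in spleen (3.64, 3.23 to 4.11), and Ramp1 157 CPM in brain and 79.7 CPM in spleen (1.98, 1.90 to 2.05). All 6 passed the rule for a gene higher in brain (a ratio of at least 1.5 with an interval above 1, and at least 10 CPM in the higher tissue). Of the 8636 genes measured, 9.81% passed it, and 8.64% passed the same rule as higher in spleen. The members were chosen with these values known, so nothing is read from that count. Some ratios rest on 1 cluster of brain cells (described below): without the cluster that held most UMIs of the gene, the ratio was 5 for Nrgn and 4.36 for Igfbp7, while Ramp1 at 1.33 no longer passed the rule and Spp1 turned round to 0.853 (0.696 to 1.04). A summed level cannot tell more cells with a gene from more RNA per cell.

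The cells behind these levels were few for Spp1 and Penk. Spp1 was found in 31 brain cells (0.789%) and 43 spleen cells (0.539%). Penk was found in 132 brain cells (3.36%) and 87 spleen cells (1.09%). Nrgn was found in 311 brain cells (7.92%) and 67 spleen cells (0.839%), and Igfbp7 in 301 brain cells (7.66%) and 65 spleen cells (0.814%). Ramp1 and Ramp3 were common, with 1593 brain cells (40.6%) and 2558 spleen cells (32.0%) for Ramp1, and 1196 brain cells (30.5%) and 798 spleen cells (10.0%) for Ramp3. With every cell thinned to 4000 UMIs, the shares were 5.89% in brain and 0.574% in spleen for Nrgn, and 4.86% in brain and 0.532% in spleen for Igfbp7. They were 1.9% in brain and 0.84% in spleen for Penk, and 0.503% in brain and 0.42% in spleen for Spp1. The order of brain over spleen held for these 4 genes, while the unthinned intervals for Spp1 overlap.

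Free RNA in droplets can give UMIs to cells that do not make a gene. In brain, none of the 327 cells of the naive or central memory-like cluster 8 (median 10023 UMIs) had a UMI of Penk, Nrgn, Igfbp7 or Spp1, which allows a share of up to 0.917%. In spleen, the 176 left-out barcodes with markers of B or myeloid cells (median 5524 UMIs) included 2 with Nrgn (1.14%), 1 with Penk (0.568%) and none with Igfbp7 or Spp1. The spleen share of Nrgn, 0.839%, is not above that share, so the share alone does not separate expression from free RNA. Those left-out barcodes held 13 Nrgn UMIs in 2 and 50 Penk UMIs in 1, and both shares are below the floor of 1.7%. Whether these barcodes measure free RNA alone was not tested. The highest spleen cells held 46, 28 and 22 Nrgn UMIs, and 42 of the 67 had at least 2. In the 37 left-out brain barcodes, Nrgn was in 3 (8.11%), Penk in 2, Igfbp7 in 5 (13.5%) and Spp1 in 2, so these barcodes give no lower level than the kept T cells.

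Spp1 and Penk UMIs came from a handful of very high cells. A single brain cell held 277 Spp1 UMIs, 30.9% of the total of 895, and the next held 176 and 147. The 2 highest cells held over 50% of all brain Spp1 UMIs. The highest Penk cell in brain held 251 UMIs, 26.6% of 944, and 4 cells held 50% of the UMIs. Nrgn and Igfbp7 were spread over more cells. It took 28 cells to reach 50% of the brain UMIs of Nrgn and 40 cells for Igfbp7, and their highest cells held 129 and 80 UMIs. A single cell was the highest in brain for both Nrgn and Igfbp7. It belonged to a 17-cell clone (TRBV5/TRAV8-1) and held 58 Il17a UMIs and no Ifng. In spleen, the highest cells held 64 Penk, 46 Nrgn, 9 Igfbp7 and 53 Spp1 UMIs.

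**Figure D1:**
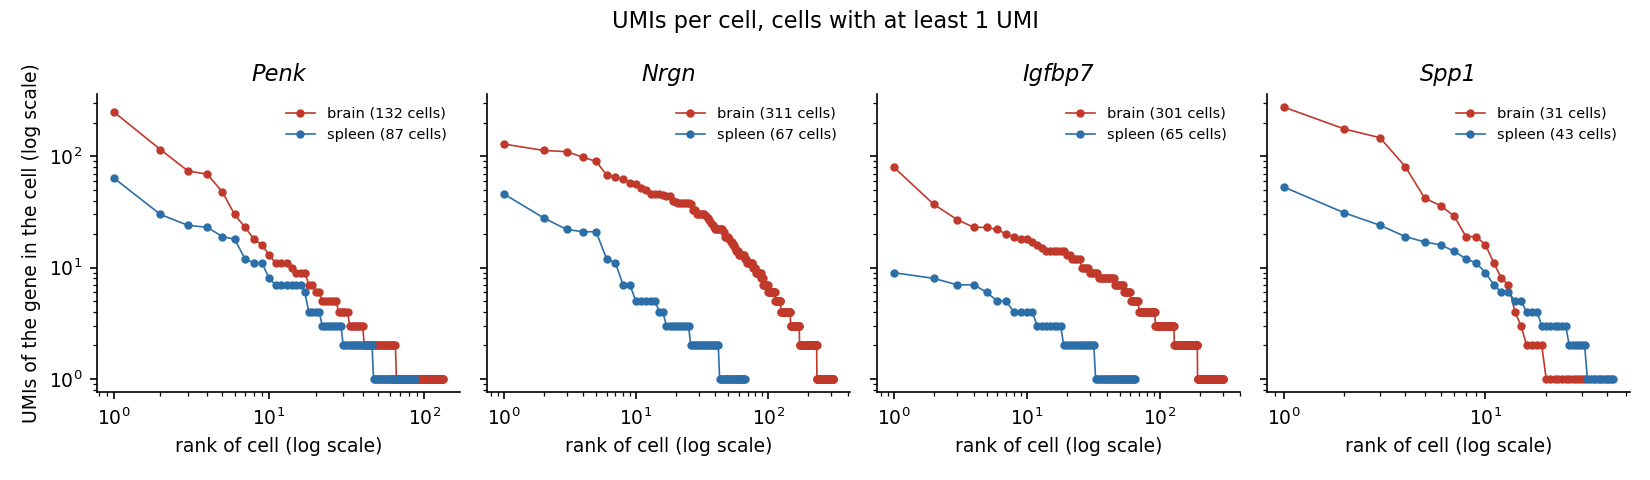
UMIs of Penk, Nrgn, Igfbp7 and Spp1 per cell, for cells with at least 1 UMI ranked from high to low, in brain (red) and spleen (blue); both axes are log scales. Brain Spp1 and Penk fall steeply from 277 and 251 UMIs in their highest cell, while Nrgn and Igfbp7 decline over 311 and 301 brain cells.

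No clonotype held most of the cells with any of these genes, so by cells none was restricted to 1 clone, although the top clonotype's share was high among genes for Penk, Nrgn, Igfbp7 and Spp1. The 233 brain cells with Nrgn and a paired receptor belonged to 114 clonotypes, of which 84 had 1 such cell. The clonotype with most of them, the 48-cell TRBV20/TRAV7D-2 clone, held 27 (11.6%, 7.78 to 16.4). The same clone led for Igfbp7, with 23 of 226 cells in 122 clonotypes (10.2%, 6.56 to 14.9), and for Penk, with 10 of 88 cells in 64 clonotypes (11.4%, 5.59 to 19.9). It made up 1.54% of all brain cells with a paired receptor. For Spp1, 23 cells fell into 17 clonotypes, and the 8-cell TRBV31/TRAV6-3 clone held 4 (17.4%, 4.95 to 38.8). Ramp1 and Ramp3 were in 953 and 799 brain clonotypes, and their top clonotype held 2.98% and 1.02% of their cells.

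Across 12621 genes with a UMI in at least 20 paired brain cells, receptor genes left out, no gene had 50% or more of its cells in a single clonotype, so the share of genes called by cells was 0%. The highest share was 40.0%, for the B cell kinase gene Blk in 20 cells, and the median gene's top clonotype held 2.41% of its cells. Of all genes, 16 had a higher share than Spp1, 83 than Nrgn, 90 than Penk and 123 than Igfbp7, which places these 4 at the 99.0 to 99.9 percentile. The genes were not matched for number of cells, 23 for Spp1 and 1342 for Ramp1, and the part of that number was not tested. Counted instead by UMIs, over cells with a paired receptor only, 0.0158% of genes passed 50%. These were Ccl1, a chemokine gene, at 61.6% and Spp1 at 51.4%. The paired cells held 823 of the 895 brain Spp1 UMIs and 567 of the 944 brain Penk UMIs. The Penk cell with 251 UMIs had no paired receptor and is not counted. For Penk, which 3 genes exceeded, 40.9% of the 567 UMIs lay in the 6-cell TRBV13-3/TRAV12-2 clone, where 3 cells held 232 UMIs. Nrgn and Igfbp7 had 14.4% and 11.9% of their UMIs in paired cells in the 48-cell clone. These values chose the genes and are given as a description.

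Nrgn, Igfbp7 and Penk recurred in some expanded clones and were missing from others of the same size. Of 63 brain clonotypes with at least 5 cells, 25 had Nrgn, 23 Igfbp7, 13 Penk and 4 Spp1, against 50 with Ramp1 and 52 with Ramp3. In 10 of the 63, at least 50% of the cells had Nrgn. In the 48-cell clone, a cell held from 0 to 58 Nrgn UMIs with a median of 1. In the 14-cell TRBV13-1/TRAV10 clone, 12 of 14 cells had Nrgn (85.7%), from 0 to 65 UMIs with a median of 5.5, and the clone's level was 1376 CPM. The 14-cell TRBV19/TRAV7D-2 clone had Nrgn in 11 of 14 cells and the 26-cell clone in 15 of 26 cells. In the 17-cell TRBV5/TRAV8-1 clone, 3 cells held 174 Nrgn UMIs, 129 of them in 1 cell.

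In the largest brain clone (67 cells, TRBV13-3/TRAV13N-1), no cell had a UMI of Penk, Nrgn, Igfbp7, Spp1 or Ramp1. The 57-cell TRBV26/TRAV7-5 clone had 1 Igfbp7 UMI, and clones of 28 and 22 cells with TRBV26 and TRAV9-1 had no UMI of Penk, Nrgn, Igfbp7 or Spp1. Those 4 clones lay mostly in the Th1-like cluster 4, and Ifng was in 59, 53, 23 and 21 of their cells, with no Il17a. The 48-cell clone had Il17a in 20 cells and Ifng in 30, with both in 7. The clones with and without Nrgn thus also differed in cytokine state, and the part of state in the level was not tested. The 19-cell TRBV20/TRAV12N-2 clone had Ifng in 18 cells, no Il17a, and Nrgn in 9 cells.

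**Figure D2:**
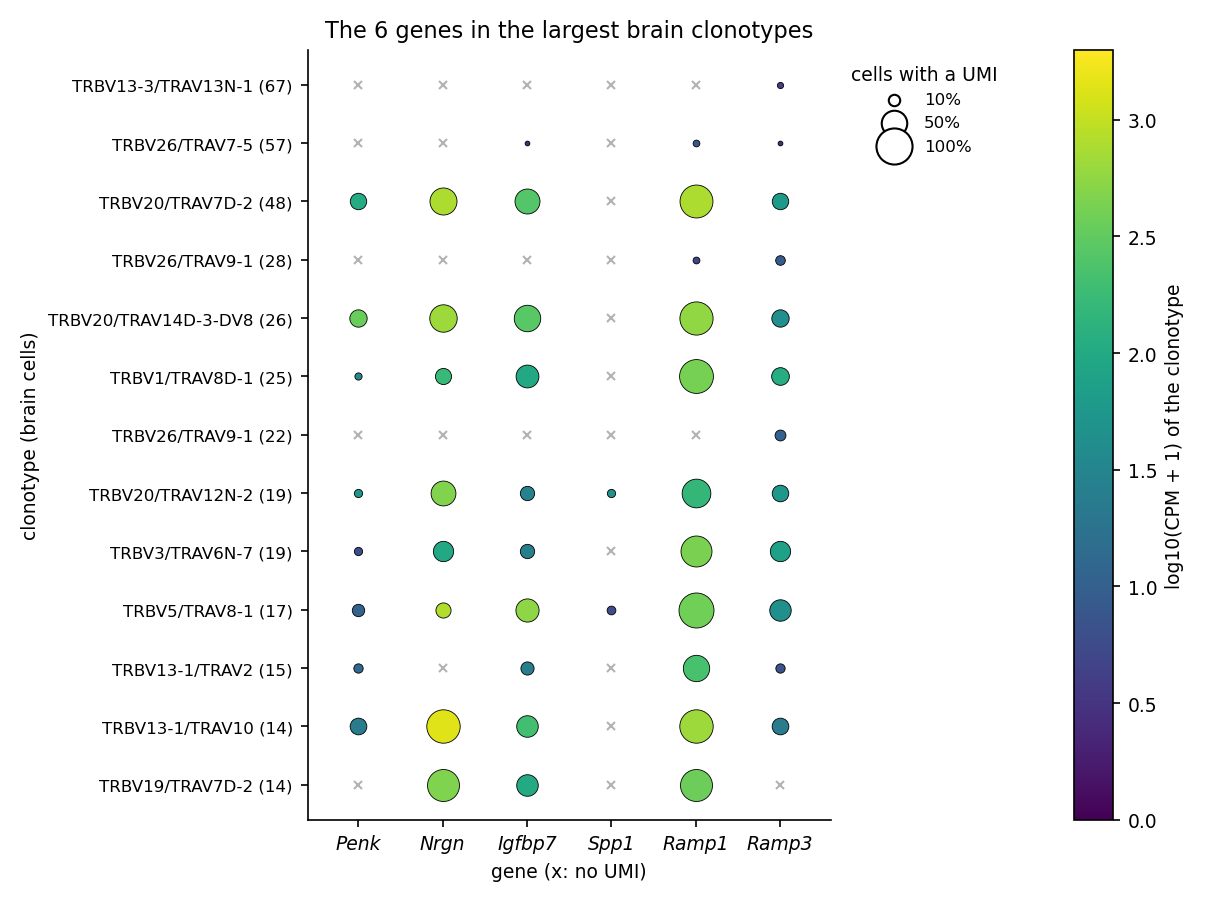
Share of cells with a UMI (dot area) and level of the clonotype as log10(CPM + 1) (colour) of the 6 genes in the 13 brain clonotypes with at least 14 cells; crosses mark no UMI and brackets give brain cells. Every clonotype shown with Nrgn also has Igfbp7, and 3 of the 4 largest clones have none of Penk, Nrgn and Spp1.

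Within the 48-cell clone, cells with the same receptor split by state. Its 26 cells in the Th17-like cluster 5 had Nrgn at 1254 CPM (1126 to 1393) in 20 cells and Igfbp7 at 407 CPM (336 to 490) in 19 cells. Its 18 cells in cluster 1, an unnamed cluster led by Ccl3, Ifitm1, Ccl4, Klrc1 and Klrd1, had Nrgn at 72.0 CPM (35.9 to 129) in 7 cells and Igfbp7 at 45.8 CPM (18.4 to 94.4) in 4 cells. By cytokine transcripts, Nrgn stood at 1818 CPM in the 7 cells with both Il17a and Ifng, 1086 CPM in the 13 with Il17a only, 152 CPM in the 23 with Ifng only and 724 CPM in the 5 with neither. The median depth was 9295 UMIs in the cluster 5 cells and 8294 in the cluster 1 cells.

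Against 667 cells of the other clonotypes with at least 5 cells, 11.4% of 3992 genes were higher and 5.29% lower in the 48-cell clone by the same ratio rule at 50 CPM or more. Ttn, the gene of the muscle protein titin, stood at 146 CPM in the clone and 9.70 CPM in the others (15-fold, 10.6 to 21.4) and was in 19 of its cells. Il1r2, a decoy receptor for interleukin 1, stood at 333 CPM in the clone and 51.2 CPM in the others (6.50, 5.35 to 7.86) and was in 22 cells. Dok6, an adaptor gene, and Krtcap3 were 10.0-fold and 9.48-fold higher, in 12 and 18 cells. Il10 (53.7 CPM in the clone, 3 CPM in the others) came from 3 cells and Il22 (215 and 29.3 CPM) from 1 cell, so these do not describe the clone as a whole. Lower were Klf2, a factor of recirculating cells (8.59 CPM in the clone, 258 CPM in the others), Plac8 (4.29 CPM from 2 UMIs, 166 CPM; ratio 0.0259, 0.00313 to 0.0937) and the chemokine gene Ccl5 (142 and 949 CPM). Ly6c2 and Gzmk had no UMI in the clone, against 117 and 86.9 CPM in the others. With 3 UMIs allowed in the clone, they were 18.2-fold and 13.5-fold lower. The upper interval bounds of their ratios were 0.0677 and 0.0914. Spp1 was also at 0 there, against 61.8 CPM in the others, but 423 of its 433 UMIs in those cells came from the 8-cell clone.

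The Spp1 clone lay mostly in another cluster. Of its 8 cells (TRBV31/TRAV6-3), 4 carried 423 UMIs, with a median of 9.5 and a highest of 176 over all 8, and the clone's level was 4907 CPM against 1.35 CPM in 707 cells of other clonotypes with at least 5 cells. In it, 17.2% of 4508 genes were higher and 7.61% lower. Adarb2 (487 CPM in the clone, 0.135 CPM from 1 UMI in the others; ratio 3600, 612 to 145518) and C2cd4b (708 and 0.947 CPM) were each in 3 of its cells. Stfa3, Hs6st3 and St18 stood at 336, 255 and 197 CPM in the clone and had no UMI in the others. With 3 UMIs allowed in the others, they were 828-fold, 628-fold and 486-fold higher. The lower interval bounds of their ratios were 632, 469 and 354. Against all 3107 other cells with a paired receptor, small clones included, the ratios were lower for most of these genes. They were 407 for Spp1 (354 to 468), 337 for Adarb2 (217 to 520), 294 for Stfa3 (175 to 489), 273 for C2cd4b (193 to 383) and 110 for Hs6st3 (65.2 to 179), while St18 still had no UMI in those cells. Ccl5, Il17a and Tmem176b had no UMI in the clone, against 909, 412 and 343 CPM in the others. Cxcr6, a chemokine receptor of tissue-resident T cells, stood at 23.2 CPM from 2 UMIs in the clone and 568 CPM in the others (ratio 0.0409, 0.00495 to 0.148). Pim1 (23.2 CPM from 2 UMIs, 571 CPM; ratio 0.0406, 0.00492 to 0.147) and S100a4 (81.2 and 1068 CPM) were lower as well. In all 3107 other cells with a paired receptor, Ccl5, Il17a and Tmem176b stood at 616, 236 and 233 CPM. Cxcr6, Pim1 and S100a4 stood there at 347, 529 and 717 CPM. Of the clone's cells, 7 lay in cluster 6, led by Nrn1, Slamf6 and Adk. Of the 404 paired cells of cluster 6, 2.72% were in clonotypes of at least 5 cells. The 707 reference cells thus held few cells of it, and the part of cluster in the ratios was not tested. The 3-cell TRBV31/TRAV6D-6 clone, with 277 of its 278 Spp1 UMIs in 1 cell, lay in cluster 6 too. Another small clone (TRBV19/TRAV6N-6) had Spp1 in all 3 of its cells, with 16, 29 and 42 UMIs, and lay in cluster 1.

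Levels across brain clusters followed 4 patterns. The clusters were built without the 6 genes. Nrgn was highest in cluster 5 (235 cells, led by Ccl1, Il17a and Il1r2) with 767 CPM (736 to 800), which held 70.9% of its UMIs, followed by cluster 1 with 159 CPM (147 to 173). Igfbp7 was highest in the same cluster 5, at 290 CPM (271 to 310) with 68.1% of its UMIs, then in the proliferating-like cluster 10 at 57.9 CPM (43.6 to 75.3) and in cluster 1 at 44.8 CPM (38.2 to 52.2), which overlap. Penk was at 136 CPM in cluster 7, a cluster of low-UMI cells, but from 4 cells. It stood at 89.0 CPM in cluster 1 (32 cells) and 83.4 CPM in cluster 5 (42 cells). Without the highest cell of each cluster, Penk was at 20.3 CPM in cluster 1 (15.9 to 25.5), 60.2 CPM in cluster 5 (51.6 to 69.8) and 42.5 CPM in cluster 7 (31.6 to 55.8), so the order of these clusters changed without 1 cell each. Spp1 was at 176 CPM in cluster 6, with 83.1% of its UMIs in 9 cells, and at 30.8 CPM in cluster 1. Without the highest cell of each, it was at 111 CPM in cluster 6 and 19.3 CPM in cluster 1.

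Ramp1 peaked with Nrgn and Igfbp7 and Ramp3 did not. Ramp1 stood at 822 CPM in cluster 5, where 94.5% of cells had it, and at 244 and 202 CPM in the Th17-like clusters 2 and 3. Ramp3 was highest in cluster 3 (199 CPM, 184 to 214, in 76.7% of cells), whose leading genes are Ccr6, Il22 and Mmp25, followed by cluster 6 at 150 CPM, and stood at 63.2 CPM in cluster 5. Il17a was in 20.5% of brain Ramp1 cells and 1.63% of those without Ramp1. For Ramp3 cells the Il17a shares were 16.3% with and 6.22% without the gene, and Ifng was less frequent with it, at 28.7% and 50.3%. In spleen, Ramp1 was highest in the unnamed cluster 14 at 374 CPM and Ramp3 in the Th17-like cluster 4 at 41.2 CPM.

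**Figure D3:**
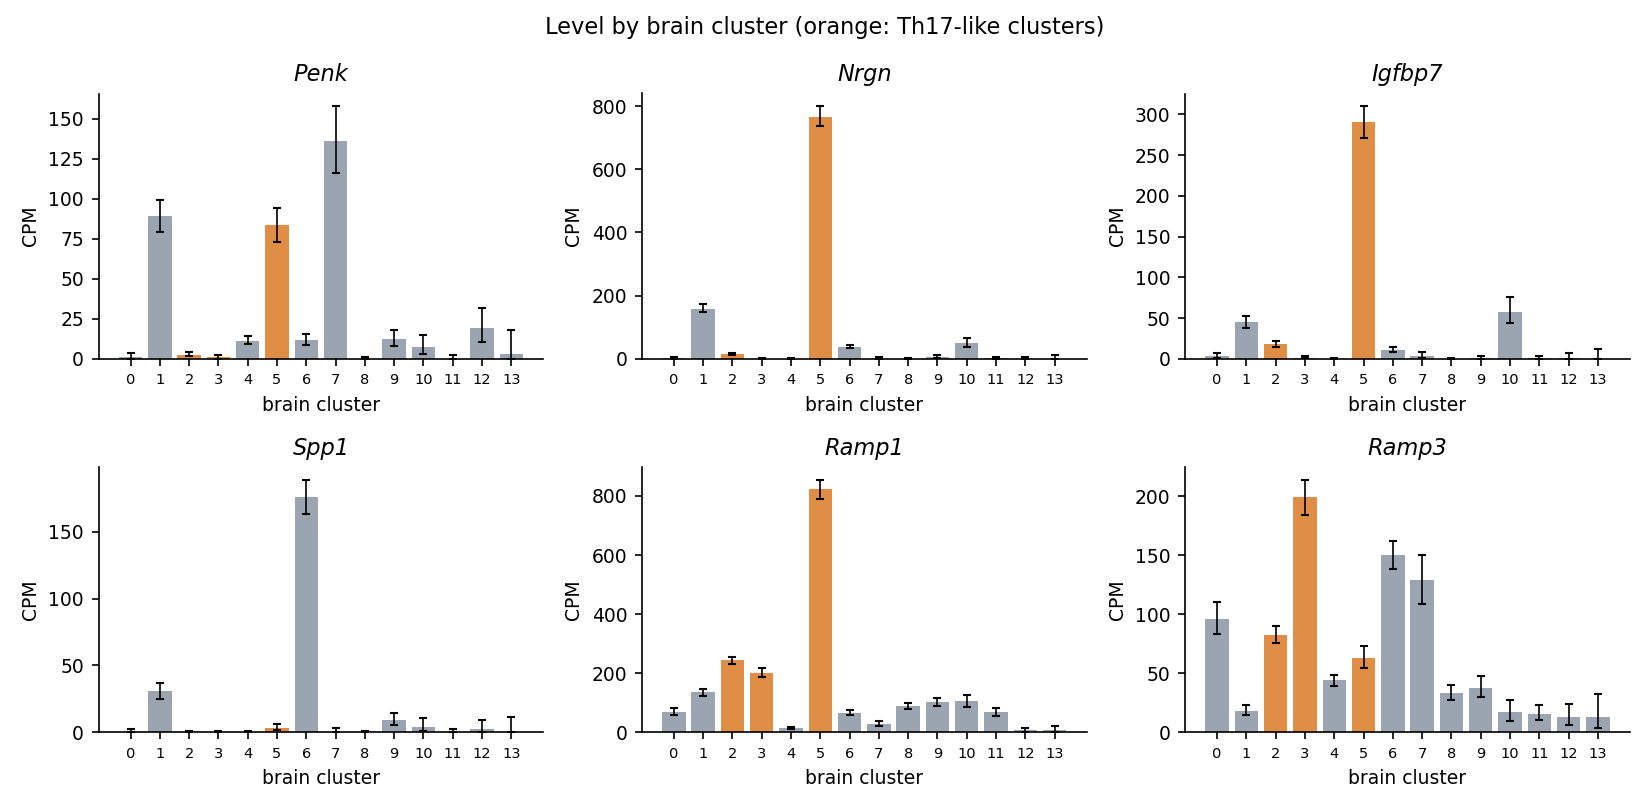
Level in CPM of the 6 genes in the 14 brain clusters, with exact Poisson 95% intervals as bars; Th17-like clusters are orange. Nrgn, Igfbp7 and Ramp1 peak in cluster 5 at 767, 290 and 822 CPM, Spp1 in cluster 6 and Ramp3 in cluster 3.

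Cluster 5 was not the 48-cell clone alone. Its 180 cells with a paired receptor belonged to 85 clonotypes, and the 48-cell clone made up 14.4% of them. Without that clone, 56.5% of its cells had Nrgn and 57.1% Igfbp7. Among the 44 cells of cluster 5 whose clonotype had no other brain cell, 45.5% had Nrgn and 56.8% Igfbp7.

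Cells with Nrgn, Igfbp7 or Penk had Il17a several times as often as other brain cells, and Spp1 cells had mostly Ifng. Il17a was detected in 43.9% of Igfbp7 cells, 38.6% of Nrgn cells, 28.0% of Penk cells and 16.1% of Spp1 cells, against 6.43%, 6.78%, 8.64% and 9.24% of brain cells without the gene named. Ifng was in 54.8% of Igfbp7 cells, 59.5% of Nrgn cells, 55.3% of Penk cells and 80.6% of Spp1 cells, against 42.3% to 43.4% of brain cells without them. After thinning, Il17a was in 34.0% of Nrgn cells and 5.64% of the others, while Ifng was in 46.5% and 35.4%. Both cytokines were found in 14.5% of Nrgn cells, 17.3% of Igfbp7 cells and 12.1% of Penk cells, against 1.15% of cells with none of the 4 genes. For Spp1, with 31 cells, the Il17a interval of 5.45% to 33.7% includes the share in the other cells. The 4 highest Spp1 cells, with 277, 176, 147 and 81 Spp1 UMIs, held only 1, 2, 2 and 3 Ifng UMIs. Cells with Spp1 held a median of 13778 UMIs and those without it 9822, and the part of depth was not tested.

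Il1r1, the interleukin 1 receptor, was in 68.1% of Igfbp7 cells and 17.6% of the others. Pdcd1, which encodes the inhibitory receptor PD-1, was more frequent in cells with each of the 4 genes, from 55.5% of Igfbp7 cells to 71.0% of Spp1 cells, against 20.7% to 23.6% of the others. Tox2, a factor linked to follicular helper cells, was in 29.5% of Penk cells and 4.35% of the others. Cxcr6 was in 91.3% of Nrgn cells and 93.4% of Igfbp7 cells, against 58.1% and 58.0% of the others, and Klf2 in 17.7% and 18.6% against 55.5% and 55.4%. Foxp3, the regulatory T cell factor, was in 16.7% of Penk cells and 6.35% of the others, and in 4.82% of Nrgn cells and 6.86% of the others. Cells with Nrgn held a median of 10890 UMIs and those without it 9732, and thinning lowered these shares on both sides without turning any of the Nrgn and Igfbp7 differences named here.

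**Figure D4:**
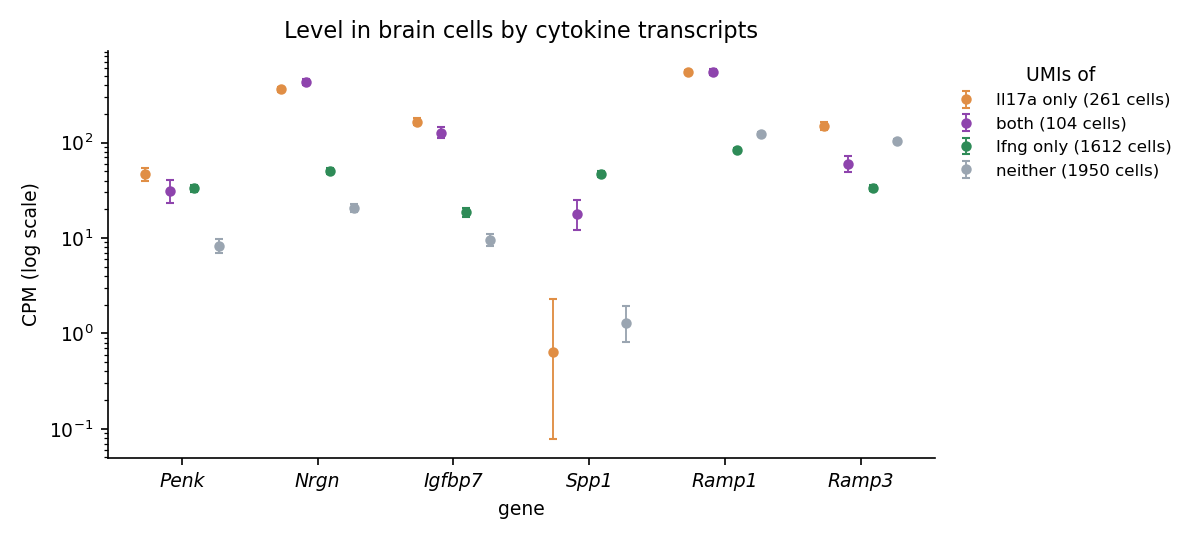
Level in CPM (log scale) of the 6 genes in brain cells with UMIs of Il17a only, of both Il17a and Ifng, of Ifng only or of neither, with exact Poisson 95% intervals. Nrgn stands at 363, 436, 50.3 and 20.6 CPM over these 4 states, while Spp1 is highest with Ifng only, at 46.7 CPM. The 4 highest Spp1 cells, with 277, 176, 147 and 81 Spp1 UMIs, are among these and held 1, 2, 2 and 3 Ifng UMIs.

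The genes were often found in the same cells. Igfbp7 was in 162 of 311 Nrgn cells (52.1%, 46.4 to 57.8), against 3.84% of brain cells without Nrgn. Nrgn was in 40.2% of Penk cells and 6.80% of the others, and in 45.2% of Spp1 cells and 7.62% of the others. Ramp1 was in 87.8% of Nrgn cells and 36.5% of the others, while Ramp3 was in 27.0% and 30.8%. Outside the 48-cell clone, Igfbp7 was in 100 of 206 Nrgn cells (48.5%) and 3.6% of the others. Inside it, Igfbp7 was in 19 of 27 Nrgn cells (70.4%) and 19.0% of the rest of the clone. Of all brain cells, 308 had 1 of Penk, Nrgn, Igfbp7 and Spp1, 174 had 2, 37 had 3 and 2 had all 4. Depth and cluster move with co-detection, and their part was not tested. After thinning, 44.5% of Nrgn cells and 2.37% of the others had Igfbp7.

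Over the 63 brain clonotypes with at least 5 cells, the gene whose level was most like that of Nrgn among 13054 genes was Igfbp7 (Pearson r = 0.87 on log2(CPM + 10)), followed by Rabgap1l, Phactr2, Adamts6 and Ephx1 (0.79 to 0.84). For Igfbp7 the list after Nrgn was Il1r2 (0.81), Nfkb1, Il17a and Tnfrsf9 (0.71). Ramp1 was most like Capg (0.85), Tmem176b, Tmem176a, Ltb4r1 and Il1r1 (0.78), and Ramp3 most like Ifngr2 (0.70), Ccr6, Nav2, Pxdc1 and St6galnac1 (0.53). Penk was most like Epdr1 (0.90), 4732487G21Rik, Gm15473, Gm20743 and Ccl1 (0.77). Spp1 was most like Ksr2 (0.98), Tmem158, Utp14b, Bcam and Wnt3 (0.96), but only 4 of the 63 clonotypes had Spp1. These values describe clonotypes of 1 library and rest on few clonotypes for Penk and Spp1.

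A J segment, which the choice of genes did not use, was more frequent in the receptors of clonotypes with Nrgn than in the others. TRAJ23 was in the alpha chain of 42 of 114 brain clonotypes with Nrgn (36.8%, 28.0 to 46.4), against 132 of 2009 without Nrgn (6.57%, 5.53 to 7.74). It was looked at after the clonotypes had been seen. With Igfbp7, 34 of 122 clonotypes had TRAJ23 (27.9%, 20.1 to 36.7), against 7% without it, and with Penk 13 of 64 (20.3%, 11.3 to 32.2), against 7.82%. With Spp1 it was 3 of 17 (17.6%, 3.80 to 43.4), with Ramp1 12.2%, against 4.96% without Ramp1, and with Ramp3 8.26%, against 8.16% without Ramp3. Of the 35 TRAJ segments with at least 20 brain clonotypes, TRAJ23 had the highest share of clonotypes with Nrgn (24.1%, 18.0 to 31.2) and with Igfbp7 (19.5%). TRAJ7 came next for Nrgn (20.5%, 9.30 to 36.5, of 39 clonotypes), and its interval overlaps that of TRAJ23. For Penk, TRAJ7 (10.3%) stood above TRAJ23 (7.47%), and for Spp1 TRAJ23 ranked 7 of 35. V segments stood out for Nrgn too. TRAV7D-2 led 44 TRAV segments (20.2% of 104 clonotypes, 13.0 to 29.2). TRBV20 led 18 TRBV segments (15.9% of 126 clonotypes, 9.97 to 23.4). Both intervals overlap that of TRAJ23, and the part of each segment was not tested.

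The share was as high in clonotypes of a single cell. Of the clonotypes with Nrgn and a single brain cell, 24 of 53 had TRAJ23 (45.3%, 31.6 to 59.6), against 7.42% of all single-cell brain clonotypes. Counting each combination of TRAV gene and alpha CDR3 once gave 34 of 106 (32.1%) with Nrgn and 6.56% without. The 42 clonotypes carried 31 different alpha CDR3 sequences and 19 TRAV genes. Of the 42, 31 (73.8%) had an alpha CDR3 of 39 bases, against 47.7% of TRAJ23 clonotypes without Nrgn. Examples beside the 48-cell clone are given with capitals as above, and all share the TRAJ23 end. The alpha CDR3 of the 48-cell clone was also found in other brain clonotypes, 10 in all.
TRBV5/TRAV8-1, 17 brain cells, alpha: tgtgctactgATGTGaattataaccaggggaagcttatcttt
TRBV19/TRAV7D-2, 14 brain cells, alpha: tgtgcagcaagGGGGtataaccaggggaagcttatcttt
TRBV20/TRAV14N-2, 5 brain cells, alpha: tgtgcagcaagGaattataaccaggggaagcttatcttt
TRBV20/TRAV7D-2, 3 brain cells, alpha: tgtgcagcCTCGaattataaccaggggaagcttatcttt

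TRAJ23 also moved with cell state. It was in 36.5% of the clonotypes with a cell in cluster 5 and 34.7% of those with a cell in cluster 1, against 5.29% in the Th1-like cluster 4, 4.96% in cluster 6 and 8.2% of all brain clonotypes. Among clonotypes with a cell in cluster 5 or 1, TRAJ23 was in 39.5% of those with Nrgn (29.2 to 50.7) and 29.9% of those without it (21.0 to 40.0), which overlap. Among clonotypes with no cell in either cluster, it was in 8 of 28 with Nrgn (28.6%, 13.2 to 48.7) and 5.39% of 1912 without it. For Igfbp7 the same comparison gave 4 of 36 (11.1%, 3.11 to 26.1) and 5.62%, which overlap. Seen by cell, 319 brain cells with TRAJ23 had Nrgn at 297 CPM (28.2% of cells), and 2796 with other TRAJ segments at 48.5 CPM (5.11%). Within cluster 5 the values were 935 CPM (875 to 999) with TRAJ23 and 788 CPM (736 to 842) with other segments. With 1 library per tissue, TRAJ23 and cell state cannot be told apart further.

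**Figure D5:**
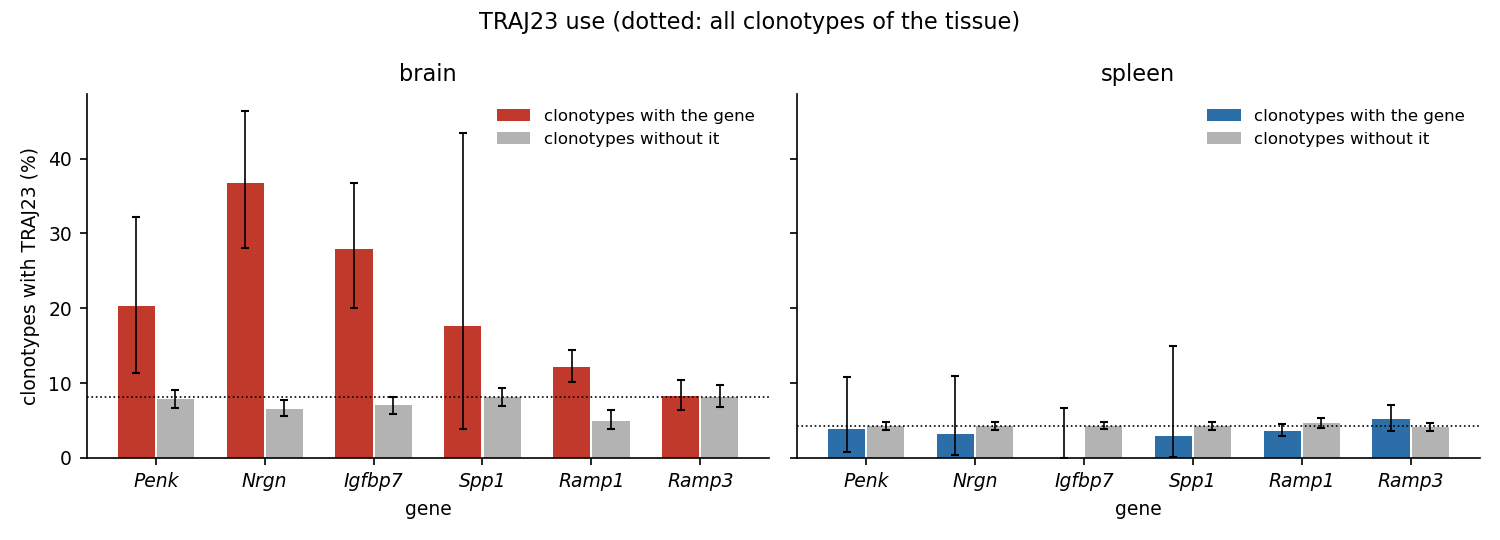
Share of clonotypes whose alpha chain uses TRAJ23, with (coloured) and without (grey) each of the 6 genes, in brain (left) and spleen (right), with exact binomial 95% intervals; dotted lines give all clonotypes of the tissue. In brain the share is 36.8% with Nrgn and 27.9% with Igfbp7, and in spleen no bar with a gene exceeds its grey neighbour beyond the interval.

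In spleen, 266 of 6237 clonotypes had TRAJ23 (4.26%), as did 2 of 63 with Nrgn (3.17%) and 0 of 54 with Igfbp7. Few spleen cells belonged to the brain clones with each of the first 4 genes. Of the 114 brain clonotypes with Nrgn, 18 (15.8%) also had spleen cells, against 8.86% of all brain clonotypes. Those 33 spleen cells held no Nrgn UMI, which allows a share of up to 9.09%. That bound lies above the 7.92% of all brain cells, so no difference from that share was detectable at this number. These clonotypes were picked for having Nrgn in brain, so their brain cells have it more often by choice. No comparison with those brain cells was made. For Igfbp7, 20 of 122 clonotypes had 98 spleen cells, 2 of them with the gene, and for Penk 11 of 64 had 26 spleen cells, 2 of them with it. The 48-cell clone had 1 spleen cell.

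The spleen cells were clustered on their own, so cluster numbers do not match between tissues. Spp1 stood at 94.1 CPM (83.3 to 106) in the follicular helper-like cluster 9, which held 94.5% of spleen Spp1 UMIs in 33 of its 424 cells. Penk was at 44.3 CPM in that cluster (30 cells) and 24.3 CPM in the regulatory-like cluster 12 (23 cells). Igfbp7 was at 26.6 CPM in cluster 9, with 53.8% of its UMIs, and Nrgn at 29.6 CPM there (19 cells), with 29.6% of its UMIs. Il21, the cytokine of follicular helper cells, was in 44.2% of spleen Spp1 cells and 1.95% of the others, and Pdcd1 in 74.4% and 14.9%. Foxp3 was in 26.4% of spleen Penk cells and 11.8% of the others. Il17a was found in no spleen cell with Penk, Nrgn or Spp1, but it was in 11 of 7983 spleen cells in all. The 78 Penk cells with a paired receptor fell into 78 clonotypes. The top Spp1 clonotype in spleen held 4 of the 40 cells with a paired receptor and 24.0% of their Spp1 UMIs.

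The cells with these genes kept T cell transcripts and had few or none of the neuron markers, while some lists of other cell types summed higher. The 5 T cell markers summed to 3002 CPM in Nrgn cells, 2850 in Penk cells, 2849 in Igfbp7 cells and 3161 in Spp1 cells of the brain, against 2401 CPM in all kept brain cells. The 5 neuron markers summed to 1.91 CPM in Nrgn cells, 2.30 in Penk cells, 2.47 in Igfbp7 cells and 0 in Spp1 cells, against 1.25 CPM in all kept cells, with Rbfox3 at 0 throughout. The 5 endothelial markers summed to 91.4 CPM in Igfbp7 cells and 103 CPM in all kept cells. Cldn5 and Cdh5 were at 0 in both, and 1 of the 5 reached 10 CPM in both. The 7 myeloid markers summed to 160 CPM in Spp1 cells and 188 CPM in Nrgn cells, against 127 CPM in all kept cells. In Spp1 cells 4 of the 7 were at 0, among them Lyz2 and Csf1r. The 5 microglia markers summed to 1327 CPM in Spp1 cells and 1738 CPM in Nrgn cells, against 1726 CPM in all kept cells. In both groups 2 of the 5 reached 10 CPM, and Tmem119 and Sall1 were at 0. The 5 oligodendrocyte markers summed to 195 CPM in Spp1 cells and 207 CPM in Nrgn cells, against 270 CPM in all kept cells. The 4 astrocyte markers summed to 10.7 CPM in Nrgn cells, 10.9 in Igfbp7 cells, 8.05 in Penk cells and 2.05 in Spp1 cells, against 3.77 CPM in all kept cells, with Aqp4 at 0 in the cells with each gene. The part of these levels in the results was not tested.

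Partner genes of the 6 members were read from lists written with earlier results known, and the median log2 ratio of brain over spleen of all genes measured was -0.09. The share of all genes that passed as higher in brain, 9.81%, is the one to set beside each count below. Of 16 opioid peptide, receptor and processing genes, 4 reached 10 CPM, and 2 of them were higher in brain. These were Furin (168 CPM in brain, 29.5 in spleen; 5.67-fold) and Cpd (72.9 and 10.8 CPM; 6.76-fold), which encode a convertase and a carboxypeptidase that trim prohormones. The mu opioid receptor gene Oprm1 was lower in the brain cells, at 5.19 CPM, than in the spleen cells, at 11.1 CPM, and Pcsk7 passed the rule in neither direction (1.03). Of the 15 CGRP and adrenomedullin genes 8 were measured, with 3 higher in brain and 5 neither, and a median log2 ratio of 0.23. Pde4b and Pde4d, which break down cyclic AMP, were 2.48-fold and 2.76-fold higher in brain, while Gnas (1.23) and Adcy7 (0.832) were neither. Calcrl, the partner of Ramp1 and Ramp3, had a ratio of 0.827, and Calca, Calcb, Adm, Iapp, Calcr and Ramp2 did not reach 10 CPM in either tissue.

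Of 14 osteopontin receptors and partners, 9 were measured, 3 higher in brain, 1 higher in spleen and 5 neither (median -0.08). Cd44 had a ratio of 1.96, and the integrin genes Itga4 (0.889), Itgb1 (0.949) and Itgb7 (0.901) were neither. Of 13 IGF-binding genes 4 were measured, with none higher in brain and Igfbp4 higher in spleen (53.7 CPM in brain, 189 CPM in spleen; 0.284), and a median of -0.51. Of 13 calmodulin pathway genes 11 were measured, with 1 higher in brain, Calm2 (1.86), 3 higher in spleen and 7 neither, so the share higher in brain was near the 9.81% of all genes. Prkca (0.932) was neither, and Prkcq (0.615) was higher in spleen. All 10 genes of the list of CREB and AP-1 factors were measured, and 8 were higher in brain with a median of 3.03. Nr4a1, which belongs to neither family, is on that list and among the 8. Whether the listed factors act on the Penk promoter in these cells was not tested. Junb reached 5544 CPM in the brain cells and 554 CPM in the spleen cells (10.0-fold), Fos was 22.3-fold, Jun 10.1-fold and Jund 2.96-fold higher in brain.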

How the data were processed

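Per the labels, the libraries were made with GEM-X 5' chemistry. Per the submitters' processing notes, the tool was Cell Ranger 9.0.0, and several mouse builds are listed with no role, so coordinates were left out. The deposited matrices give raw UMI counts for each gene in each barcode, and the deposited contig tables hold UMI counts, V and J calls and CDR3 nucleotides per contig.

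Barcodes were kept with at least 500 genes, 1000 UMIs and at most 10% mitochondrial UMIs (4143 of 4277 in brain, 8474 of 8707 in spleen). Doublets were handled by leaving out 179 brain and 315 spleen barcodes with more than 1 productive TRB or 2 productive TRA chains, which misses doublets with 1 recovered receptor. Barcodes with at least 3 markers of myeloid, microglial or B cells were also left out (37 and 176), a rule set after the data were seen. Clonotypes used the TRA chain with most UMIs.

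Each tissue was clustered on its own with scanpy 1.11.5 and igraph 0.11.9 (2000 variable genes without the 6 members, 30 components, 15 neighbours, resolution 0.8). A cluster was named from a marker list with at least 3 genes, and the list mean, higher by 0.3 on the log2 scale. The name also needed list genes among the 10 leading genes and a set lead over the next list that qualified. A paired receptor in at least 20% of the cells was required too. Clusters that failed any of these stayed unnamed. Thinning drew 4000 UMIs per cell with seed 1. Intervals are exact Poisson for UMIs, Clopper-Pearson for shares and conditional binomial for ratios (scipy 1.17.1). The floor for a count of 0 was set at 3 UMIs, which is 0.0735 CPM over the brain cells and 0.0497 CPM over the spleen cells. TMM factors came from edgeR 4.0.16 and size factors from DESeq2 1.42.0, as scalings only. The calculations were tested on simulated data.

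The 6 genes and all lists were chosen with earlier results of these data known. Named genes were the 6 members, up to 4 per list with most UMIs at 10 CPM or more, the 5 genes most like each member, and the 6 highest and 6 lowest in a top clonotype at 50 CPM or more. Genes named outside this rule are helper markers or genes picked once their values were known. Results for some genes are not reported here.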

Additional observations from a re-analysis of the deposited data

How the results depend on the processing

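With 1 library per tissue no replicate was left out, and no difference was tested. No paired analysis was possible because each group is 1 library and no result comes from a test. Rare genes, a few high cells and unknown mouse numbers limit what these libraries show.

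Of the brain over spleen ratios, Spp1 turned round without brain cluster 6 (0.853). Spp1 was 2.39 without its top clonotype, 3.66 over all barcodes and 3.13 without its highest cell. Penk was 4.23 over all barcodes, 2.49 in paired cells, 2.68 without its highest cell and 2.63 without cluster 1. Nrgn was 14.1 in paired cells and 5 without cluster 5, Igfbp7 4.36 without cluster 5, and Ramp3 3.70 without its highest cluster. Ramp1 was 2.05 with DESeq2 size factors, 1.89 without its top clonotype and 1.33 without cluster 5. Without a floor, 2601 genes passed as higher in brain and 2282 as higher in spleen, while at 10 CPM 847 and 746 did.

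At 2 UMIs or more the share of brain cells was 1.66% for Penk, 5.93% for Nrgn, 4.89% for Igfbp7, 0.484% for Spp1, 27.8% for Ramp1 and 16.3% for Ramp3. After thinning it was 1.9% for Penk, 5.89% for Nrgn, 4.86% for Igfbp7, 0.503% for Spp1, 29.2% for Ramp1 and 18.2% for Ramp3. Brain clonotypes at 2 UMIs numbered 33 for Penk, 10 for Spp1, 620 for Ramp1 and 464 for Ramp3, and after thinning 37 for Penk, 81 for Igfbp7, 10 for Spp1, 634 for Ramp1 and 500 for Ramp3.

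Over cells with a paired receptor, the top clonotype's share of UMIs was 40.9% for Penk, 51.4% for Spp1 and 7.05% for Ramp1. Without the highest of these paired cells, it was 25.9% for Penk, 77.5% for Spp1 and 7.1% for Ramp1. For Penk that was the cell with 115 UMIs, as the cell with 251 had no paired receptor. At a share of 30% of cells, 3 brain genes passed, and by UMIs in paired cells 2 passed at 50%. Co-detection of Igfbp7 at 2 UMIs fell to 27.7% of Penk cells and 15.8% of Spp1 cells. After thinning, Ifng was in 42.1% of Penk, 46.5% of Nrgn and 42.9% of Igfbp7 cells and Il17a in 37.8% of Igfbp7 cells. At 2 UMIs, Igfbp7 cells had Il17a in 51% and Ifng in 47.9%. TRAJ23 was in 11.1% of Igfbp7 clonotypes with no cell in cluster 5 or 1. Of the recomputed values, 209 stayed within the counting interval (within 1.5 times for counts of genes), 86 moved past it and 1 turned round. Alternatives on single cells (in all brain cells, in paired cells and within clusters), left-out clusters, helper genes and TRAJ23 were chosen after seeing the data.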
